A study of Caenorhabditis elegans with 2 samples.

Results

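Small nucleolar RNA (snoRNA) and small nuclear RNA (snRNA) genes of Caenorhabditis elegans were examined for peaks of CEH-2-GFP, a tagged homeodomain protein, in chromatin of late embryos. The members were all 475 nuclear genes that Ensembl annotates as snoRNA (346 genes) or snRNA (129 genes) on WBcel235, the assembly called ce11, out of 46890 nuclear genes of every class. ChIP-seq, the sequencing of DNA pulled down with a protein, was made from whole hermaphrodites of strain OP323 collected as late embryos, 5 hours after synchronization by egg bleaching. The strain is a transgenic line that stably carries CEH-2 with a GFP-FLAG tag at its C terminus, and an antibody against GFP was used on sonicated chromatin. Only 1 group is labelled, with 2 biological replicates, so no group without the tag was compared and the values describe a single transgenic line in whole animals with all their cell types mixed. The labels do not say which promoter drives the tagged protein.

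Most snoRNAs guide the chemical modification of ribosomal and spliceosomal RNA, by 2′-O-methylation for the box C/D class and pseudouridylation for the box H/ACA class. The snRNAs are the RNA parts of the spliceosome, and the SL1 and SL2 RNA genes (sls-1 and sls-2), which Ensembl also files under snRNA, donate the spliced leader that worms join to the front of many messenger RNAs. Many animal snoRNAs are cut out of the introns of host genes, while others have promoters of their own. In animals, snRNA genes are read from a proximal sequence element bound by the SNAPc complex, and tRNA genes are read by RNA polymerase III from an A box and a B box that lie inside the gene.

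The sequence just before some of these genes is shown first, since most reproducible summits lay there and the cores marked in it are counted further on. Each line below gives the 100 bases before the first base of a gene, 5′ to 3′ on the gene's strand, from the RefSeq genome of WBcel235. The first set holds the 5 snoRNA genes with the strongest reproducible summits on chromosomes II to V among those that carried both a TGG, any 3 bases, AG, any base, GG stretch (called the A core here, after the tRNA A box that it resembles) and a GTTCNANNC stretch (the B core); these stretches are in capitals. They are T03F7.8 at chrV:11314158-11314257 (plus strand), Y43F8C.22 at chrV:19643188-19643287 (minus strand), Y75B12B.12 at chrV:15191094-15191193 (minus strand), C04G6.12 at chrII:5105232-5105331 (minus strand) and F30H5.4 at chrIII:502704-502803 (plus strand).
T03F7.8: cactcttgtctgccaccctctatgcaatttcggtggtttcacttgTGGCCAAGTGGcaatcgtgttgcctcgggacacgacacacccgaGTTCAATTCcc
Y43F8C.22: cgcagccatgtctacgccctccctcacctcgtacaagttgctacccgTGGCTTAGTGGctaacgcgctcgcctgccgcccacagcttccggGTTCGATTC
Y75B12B.12: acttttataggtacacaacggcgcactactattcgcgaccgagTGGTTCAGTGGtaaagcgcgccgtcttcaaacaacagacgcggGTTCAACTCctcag
C04G6.12: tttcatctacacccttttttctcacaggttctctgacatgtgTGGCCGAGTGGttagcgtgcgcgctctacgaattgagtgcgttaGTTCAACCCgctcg
F30H5.4: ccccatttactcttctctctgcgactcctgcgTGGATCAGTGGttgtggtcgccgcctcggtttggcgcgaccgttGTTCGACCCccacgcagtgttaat
The second set holds the only 3 snRNA genes with a reproducible summit among the 32 that carried CGGAACC, again in capitals. They are W05B2.8 at chrIII:10989579-10989678 (plus strand), F54D8.7 at chrIII:5080899-5080998 (minus strand) and sup-6 at chrII:12944968-12945067 (minus strand). F54D8.7 also held a B core, which began more than 100 bases before the gene and is not in its line. The summit of W05B2.8 lay inside the gene, at 90 bp from its first base, and so outside its line.
W05B2.8: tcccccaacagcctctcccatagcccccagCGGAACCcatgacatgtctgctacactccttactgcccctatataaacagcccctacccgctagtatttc
F54D8.7: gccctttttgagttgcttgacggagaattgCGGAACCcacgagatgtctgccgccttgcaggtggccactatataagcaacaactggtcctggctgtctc
sup-6: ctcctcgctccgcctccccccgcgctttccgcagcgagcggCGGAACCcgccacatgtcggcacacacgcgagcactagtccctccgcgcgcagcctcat
The last set holds a strong intronic snoRNA gene and the strongest SL2 RNA gene of chromosome II, both with no exact match to these cores in the 150 bases before them. They are ZK994.7 at chrV:8500479-8500578 (plus strand) and sls-2.1 at chrII:5844765-5844864 (plus strand). ZK994.7 holds CGAAACC, which differs from CGGAACC in a single base, and only exact matches were counted.
ZK994.7: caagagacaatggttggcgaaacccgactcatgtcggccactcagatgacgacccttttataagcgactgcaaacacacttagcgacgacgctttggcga
sls-2.1: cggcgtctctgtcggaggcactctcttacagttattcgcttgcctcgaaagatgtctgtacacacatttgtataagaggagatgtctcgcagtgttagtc

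A member was counted as having a summit when the highest point of a peak lay in the gene or within 300 bp of it. In the authors' reproducible peak list, 76 of 475 members had one, or 16.0% (95% Wilson interval 13.0 to 19.6%, which covers the counting of genes only). The same count over all nuclear genes gave 3.96%, and 725 bp tiles laid over the genome, as long as the median padded member, gave 1.01%. The padded members cover 0.336% of the nuclear genome and took 77 of the 1430 nuclear reproducible peaks, or 5.38%, among them 13 of the 100 strongest. In the list called on both replicates at a relaxed threshold, which by its name holds background too, 169 members (35.6%) had a summit against 24.1% of all genes. All genes include 15363 piRNA genes, at 3.35% in this pooled relaxed list and 0.117% in the reproducible one. Protein-coding genes, whose spans were not matched in length to the members, stood at 37.9% in the pooled relaxed list, above the members. In the reproducible list they stood at 5.63%. The relaxed list of replicate 1 marked 38.1% of members against 26.4% of all genes, and that of replicate 2 marked 32.2% against 23.6%. For comparison, tRNA genes had a reproducible summit in 150 of 612 cases (24.5%, interval 21.3 to 28.1%) and microRNA genes in 16 of 261 (6.13%, interval 3.81 to 9.72%). The share of all members together thus lay between those classes, with intervals that do not overlap either. The 2 biotypes taken apart were not separated in this way. The snoRNA interval, 15.0 to 23.2%, overlaps that of tRNA genes, and the snRNA interval, 4.83 to 14.6%, overlaps that of microRNA genes. Counting merged loci instead of genes gave 74 of 442, or 16.7%.

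snoRNA genes carried summits more often than snRNA genes. A reproducible summit was near 65 of 346 snoRNA genes (18.8%, interval 15.0 to 23.2%) and 11 of 129 snRNA genes (8.53%, interval 4.83 to 14.6%), a difference of 10.3 percentage points (95% interval 3.09 to 16.0). With 1 group of samples there is no test of this difference, since genes are not replicates. In the relaxed list the shares were 38.7% and 27.1%. Many snRNA genes are near-copies, and 46 of them have a sequence found more than once in the genome. Only 27 of 129 snRNA windows had at least 95% of their 31-base words unique, against 321 of all 475 windows, and how the authors treated reads that map to several places is not given in the sources used here. Among the unique snRNA windows 1 of 27 had a reproducible summit and among the others 10 of 102, and the part of mapping in the difference was not tested.

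Within the snRNA class the spliced leader genes parted. None of the 12 SL1 RNA genes had a reproducible summit, which allows a share of up to 25%, and none had a summit in the pooled relaxed list. Of the 18 SL2 RNA genes, 3 had a reproducible summit (16.7%, interval 5.84 to 39.2%) and 10 had a relaxed one (55.6%, interval 33.7 to 75.4%). The sequence of each SL1 RNA gene was found at least 10 times in the genome, and the part of these copies in the absence of summits was not tested. The snRNA genes outside the spliced leader and smy families had 8 of 89 (8.99%).

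Members in host introns and members outside protein-coding genes, called intergenic or between genes here, carried summits at close shares. Of 224 members inside an intron of a protein-coding gene and clear of its exons, 37 had a reproducible summit (16.5%, interval 12.2 to 21.9%), and of 186 members outside protein-coding genes 31 had one (16.7%, interval 12 to 22.7%). The difference was -0.149 percentage points, with a 95% interval from -7.5 to 7.0, so a difference of several points either way is within counting error. With genes of any other biotype counted as hosts too, the shares were 27 of 176 in introns (15.3%) and 21 of 149 outside genes (14.1%). Genome tiles with an intronic centre had a summit in 0.696% of cases and those with an intergenic centre in 1.49%. The remaining 65 members overlapped an exon of a protein-coding gene, and 8 of them had a summit (12.3%). Among snoRNA genes alone the shares were 18.3% in introns and 21.0% between genes. Intronic snoRNA genes on the host's strand, the only ones that could be cut from the host transcript, had 23 of 142 (16.2%, interval 11 to 23.1%), and those on the opposite strand had 8 of 27 (29.6%, interval 15.9 to 48.5%). These intervals overlap. Intronic snRNA genes went the other way, with 6 of 35 on the host's strand (17.1%) and 0 of 20 on the opposite strand. Over all intronic members the shares were 29 of 177 (16.4%) and 8 of 47 (17.0%).

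**Figure D1:**
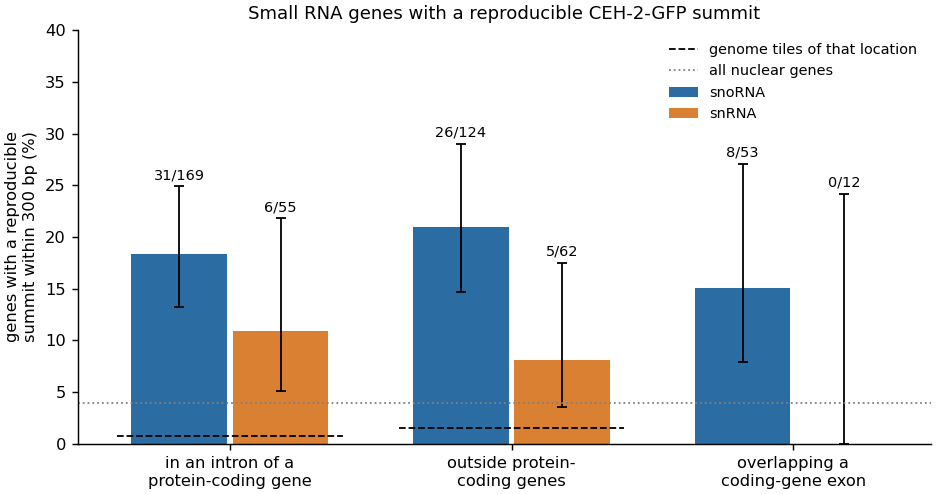
Percentage of snoRNA and snRNA genes with a reproducible CEH-2-GFP summit within 300 bp, by location, with 95% Wilson intervals as bars and the counts above them; the dashed lines are genome tiles of the same location and the dotted line is all nuclear genes at 3.96%. snoRNA genes stand at 18.3% in introns and 21.0% between genes, far above the tiles at 0.696% and 1.49%.

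The summits in introns were mostly not at the host's own promoter. Of the 37 intronic members with a reproducible summit, 5 had it in the window from 1000 bp before to 200 bp after a transcript start of the host, and 32 had it outside. Over all members, 84 had the start of a protein-coding transcript within 300 bp, and 13 of these had a summit (15.5%). Among the 390 members with neither such a start nor a tRNA gene within 300 bp the share was 63 of 390, or 16.2%.

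Summits sat just upstream of snoRNA genes. Measured from the first base of the gene, the strongest reproducible summit of 65 snoRNA genes had a median position of -43.0 bp (95% interval of the median -49.0 to -34.0), and 45 of 65 lay 1 to 100 bp upstream. In all, 54 lay upstream, 9 inside the gene and 2 beyond its end. The median was -33.0 bp for the 31 intronic snoRNA genes (interval -44 to -9) and -54.5 bp for the 26 intergenic ones (interval -66.0 to -44.0). In the strongest peaks of replicate 2 alone these medians were close, at -46.0 and -51.0 bp. In those of replicate 1 alone they were -33.0 and -51.0 bp. The 11 snRNA genes had a median of 1.00 bp with a wide interval, from -46.0 to 103, and 6 of their 11 summits lay inside the gene. In the strongest peaks of replicate 1 alone, without replicate 2, the count inside the gene was 1 of 8, with 5 upstream and 2 beyond the end, so the place of the snRNA summits rests on the list used. The SL2 RNA genes were split, with sls-2.1 at -46 bp, sls-2.2 at 103 bp and sls-2.4 at 106 bp in these genes of 110 bp. The replicates differed on these places, with sls-2.2 at 142 bp in replicate 1 and 81 bp in replicate 2, and sls-2.4 at 43 and 105 bp, while sls-2.1 was at -22 and -49 bp. For 15 of the 76 members the strongest summit was inside the gene itself, and the share with no padding was 3.37% of members, 2.89% of snoRNA genes and 4.65% of snRNA genes, so the order of the classes was turned at that setting.

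**Figure D2:**
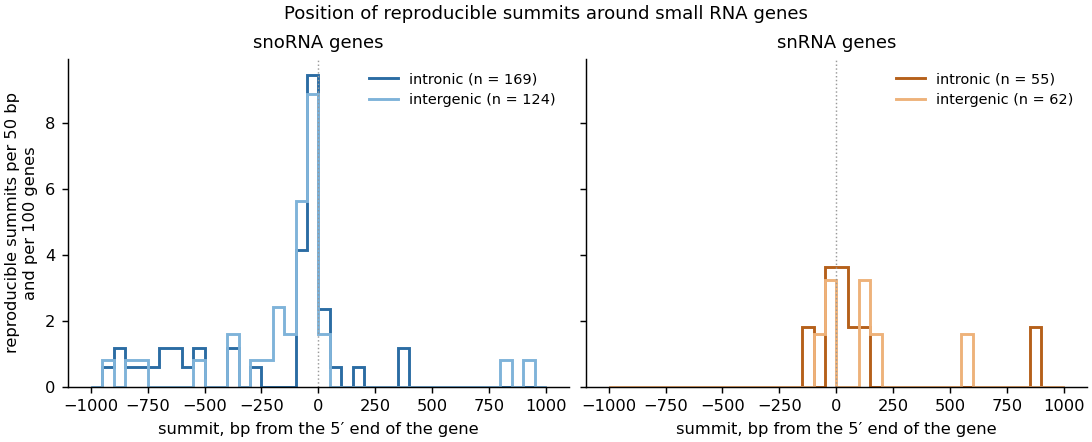
Reproducible summits in 50 bp bins around the first base of snoRNA genes (left) and snRNA genes (right), per 100 genes, with negative positions upstream. Intronic and intergenic snoRNA genes peak in the bins just before the gene start, while the few snRNA summits are spread over the gene and its start.

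The strongest summit near any member belonged to a pair of snoRNA genes in the same direction in frm-7, a gene for a FERM domain protein. C51F7.3 lies in an intron and C51F7.4 overlaps an exon, and they shared a reproducible summit with a signal of 672, on the authors' scale, which is not given. The signal of that place in the relaxed lists was 323 in replicate 1 and 346 in replicate 2. It lay 72 bp before C51F7.3 and 37 bp inside C51F7.4.

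Among intergenic snoRNA genes, W03C9.9 (chrII:11960898-11960959) was the strongest, with a signal of 581 in the pooled data, 269 in replicate 1 and 316 in replicate 2. T06C12.16 had 423, with 227 and 187 in the replicates, and ZK265.10 had 415, with 216 and 202. Y17G7B.25 had 394 and F59C6.15 had 360, and their summits lay farther upstream, at -234 and -128 bp. The next 5 places, F32E10.10, H09I01.2, Y75B12B.12, C41C4.11 and T19B4.8, ran from 288 to 251, with summits 23 to 60 bp before the gene.

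Among snoRNA genes in introns or overlapping exons of protein-coding genes, ZK994.7 (chrV:8500579-8500645) in pxn-1, a peroxidasin gene, followed the frm-7 pair with 513, and 257 and 251 in the replicates. T03F7.8, shown above, had 497, with 251 and 246, and is on the opposite strand to its host cutl-18. T02E1.9, which overlaps an exon but lies inside no host gene, had 381, Y43F8C.22 in Y43F8C.7 had 357, and D1046.6 in cfim-2, a gene for an mRNA cleavage factor subunit, had 341. C27H6.5 in unc-41, a gene for a stonin-like synaptic protein, had 300, F39B2.14 in tmem-107 had 284, ZK484.9 opposite to the ABC transporter gene haf-9 had 278, and C10C6.8 in catp-8, a P-type ATPase gene, had 275. The replicates of these 4 lay between 129 and 170.

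Among snRNA genes W05B2.8 (chrIII:10989679-10989780), in an intron of the dynein heavy chain gene dhc-4, led with 321, and 170 and 153 in the replicates. The SL2 RNA genes followed, with sls-2.4 at 218 (83.9 and 142), sls-2.1 at 216 (91.1 and 127) and sls-2.2 at 168 (79.6 and 90.1). C28A5.7 had 150, F54D8.7 had 145, and sup-6, which like sup-39 is a genetic suppressor locus that encodes an snRNA, had 124. F38E11.10 had 117. sup-39 shared a summit at 108 with mir-1831, a 22 bp gene inside it that Ensembl also files under snRNA. R07E5.16 in mpc-1, a gene of the mitochondrial pyruvate carrier, had 88.9.

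The reproducible list ends close below these values. The members just inside it had signals of 88.8 and 88.9, and the strongest members outside it were Y53F4B.47 at 85.7, C53B7.8 at 83.9 and F30A10.16 at 83.1 among snoRNA genes, and C52E4.8 at 79.7, sls-2.9 at 78.5 and smy-1 at 63.3 among snRNA genes. Over the 76 members the median signal was 187, and 55 of 76 were at or above 126, the median of all nuclear reproducible peaks. The median was 202 for snoRNA and 145 for snRNA genes, and 170 for intronic and 216 for intergenic members.

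**Figure D3:**
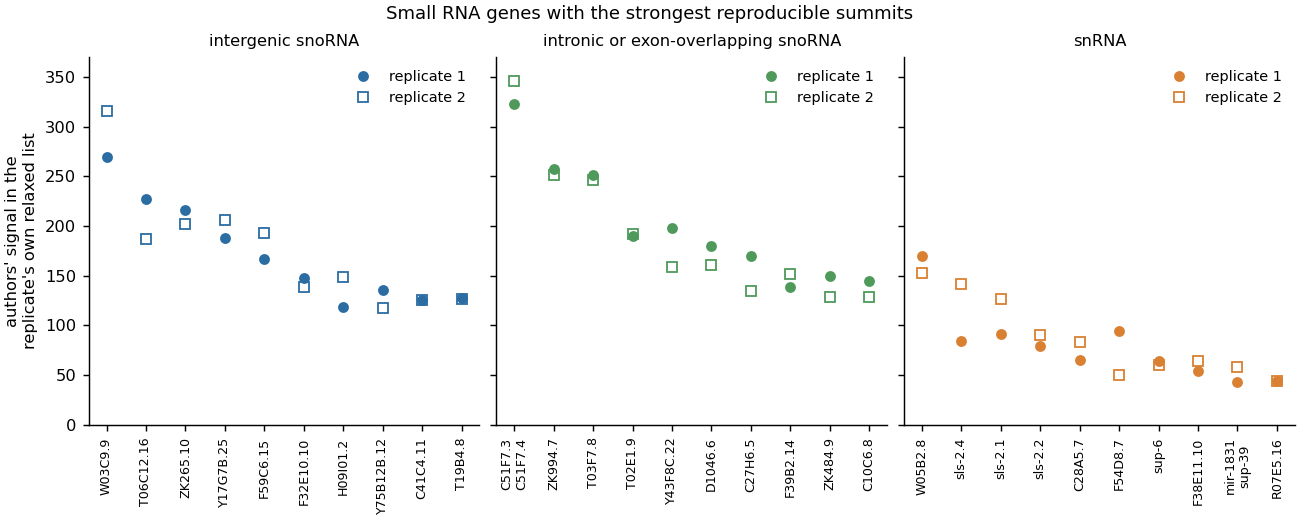
Authors' signal of the strongest relaxed summit in replicate 1 (filled circles) and replicate 2 (open squares) for the 10 strongest places of each class; the vertical axis starts at 0 and members that share a summit share a label. The frm-7 pair stands at 323 and 346, and the snRNA places run from 170 and 153 at W05B2.8 down to 43.9 and 44.0 at R07E5.16.

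More members had a relaxed summit in both replicates than in 1 alone. Of the 475, 126 had a relaxed summit in both replicates, 55 in replicate 1 alone, 27 in replicate 2 alone and 267 in neither. The same overlap over all nuclear genes is not given here, so these counts do not set the members apart from other genes. All 76 members of the reproducible list had one in both, which the making of that list favours. Across the 126 members the signals of the replicates had a Spearman rho of 0.91, a description across genes of 2 libraries with no test. The replicates' summits lay a median of 32.0 bp apart in the 126. In the 76, where the making of the list again favours agreement, the median was 24.5 bp, and 59 of 76 pairs were within 50 bp. When the 1430 strongest peaks of each replicate were taken alone, 64 members were marked by both and 85 by either.

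**Figure D4:**
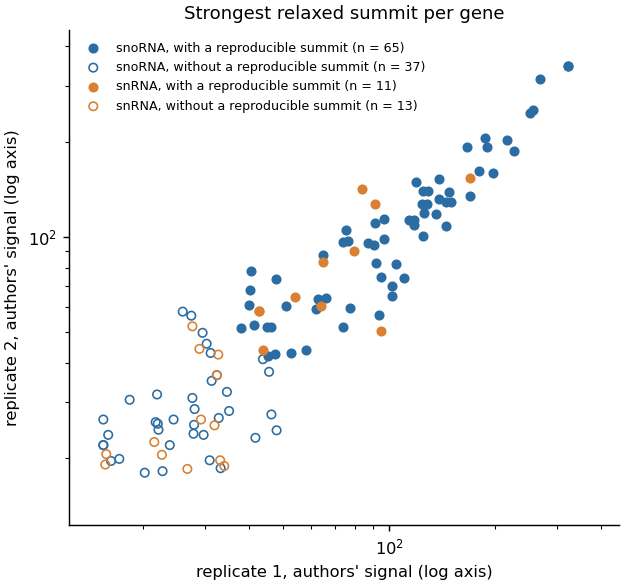
Signal of the strongest relaxed summit in replicate 1 and replicate 2, on log axes, for the 126 members with one in both; filled points have a reproducible summit. The points lie along a diagonal, with members of the reproducible list in the upper part.

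Members with a tRNA-like core before them carried summits more often than the rest. In the 150 bases upstream, on the gene's strand, 38 members held the B core and 24 of these had a reproducible summit (63.2%, interval 47.3 to 76.6%), against 52 of 437 without it (11.9%). The A core was before 24 members, 20 of them with a summit (83.3%, interval 64.1 to 93.3%), against 56 of 451 without it (12.4%). Of the 11 members with both cores, 10 had a summit. Members with neither had 42 of 424 (9.91%), so 34 of the 76 members with a summit held at least 1 of these cores. These letters were picked after the upstream sequences and short-word counts of members with and without summits had been looked at, so the counts describe the genes they were picked on and carry no test. In all, 23 patterns were tried in windows of 120 and 150 bases, and in the wider window the share with a summit ran from 14.8% to 78.6% over 7 forms of the B core and from 14.3% to 85.7% over 11 forms of the A core. With the shorter core GTTCNA, 31 of 100 members with it had a summit against 45 of 375 without, while the A core shortened to TGGNNNAG gave 31 of 75 against 45 of 400 and the form TGGCNNAG gave 21 of 35 against 55 of 440.

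Both cores are common in tRNA genes and rare before other genes. The B core is inside 95.9% of tRNA genes and before 2.11% of all other nuclear genes that are not members, and the A core inside 41.2% and before 0.252%. Where both cores and a summit were present, the A core began 43 to 45 bases before the B core in all 10 members. The B core of members with a summit began a median of 14.5 bases before the gene, and the A core 59.0 bases. The summit lay a median of 23.0 bp past the first base of the A core in those 10 members. The cores were found in introns as well as between genes. Of 18 intronic members with the B core 11 had a summit, and of 15 intergenic ones 10. On the gene's strand, only 3 of the 129 snRNA genes held the B core and 1 the A core. On the other strand 10 of 129 held the A core (7.75%, against 0.582% of other genes) and 1 the B core. The A core on that strand was before 6 of 76 members with a reproducible summit and 9 of 399 without.

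CGGAACC was the most frequent of the 3 cores before snRNA genes. It stood before 32 of 129 snRNA and 22 of 346 snoRNA genes, against 0.235% of other genes, and began 55 to 75 bases before the gene in 50 of 54 members. Of these 54 members 5 had a reproducible summit (9.26%, interval 4.02 to 19.9%), or 4 of 53 (7.55%) without F54D8.7, which also held a B core. These shares were close to the 38 of 371 members with none of the 3 cores (10.2%). A relaxed summit was near 27 of 54 (interval 37.1 to 62.9%), above the 28.3% of members with none of the 3 cores (interval 24.0 to 33.1%).

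The base composition moved with the summits. The 150 bases upstream had a median G+C content of 51.3% in members with a reproducible summit, 47.3% in those with a relaxed summit alone and 41.3% in those with none. Among members with none of the 3 cores it was 49.7% with a reproducible summit and 41.3% without, and the part of base composition in these results was not tested. Of the letter patterns searched on both strands from 250 bases before to 50 bases after the gene start, TAATTA, a core that many homeodomains bind, was in 6.58% of members with a summit, 14.3% of those without and 16.7% of other genes. TAATGA gave 7.89%, 12.3% and 21.1%, and TATAAA gave 27.6%, 26.3% and 37.5%. GAGAGA was in 30.3%, 20.6% and 17.4%, and GGCCAC in 19.7%, 6.27% and 4.29%, in the same order. The reverse complement of GGCCAC can share letters with either end of the A core. A match is a description of the letters and not a bound site.

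**Figure D5:**
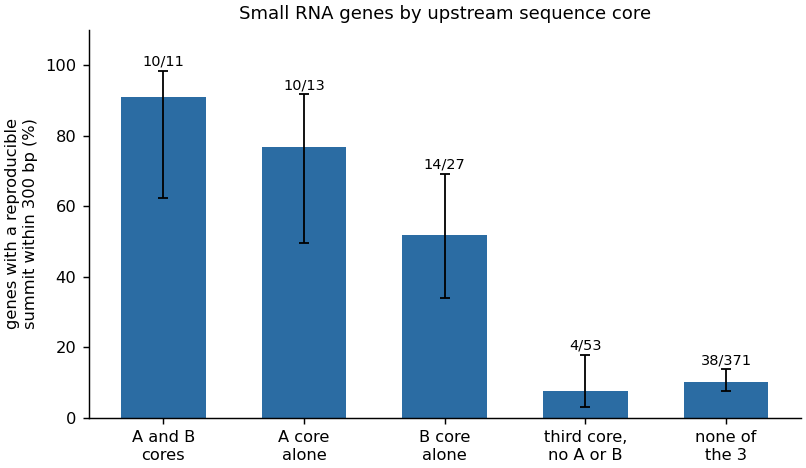
Percentage of members with a reproducible summit by the core found in the 150 bases before the gene, with 95% Wilson intervals as bars and counts above; the third core is CGGAACC. Members with both the A and B cores reach 90.9% and those with none of the 3 cores 10.2%; the cores were picked on these genes.

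None of the 36 members on chromosome X had a reproducible summit, which allows a share of up to 8.33%, while 5.99% of all genes on X had one and the members on other chromosomes ran from 12 of 100 on IV to 20 of 87 on II. With either replicate alone 1 of 36 members on X was marked (2.78%, interval 0.492 to 14.2%), and that interval reaches past the share of 13 of 100 on IV. In the relaxed list 9 of 36 members on X had a summit (interval 13.8 to 41.1%), close to 29.0% on IV and 29.5% on V. Only 3 members on X held an A or B core, and none of them had a reproducible summit. The members with such a core that had a summit were 11 of 16 on I, 9 of 9 on II, 3 of 6 on III, 3 of 6 on IV and 8 of 11 on V.

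Genes for the proteins that work with these RNAs were looked at through their promoters, from 1000 bp before to 200 bp after a transcript start. Of 60 listed symbols 7 were not found, and the rest named 51 genes. A reproducible summit was in the promoter window of 10 of 51 (19.6%, interval 11 to 32.5%), against 5.97% of all protein-coding genes. The strongest was fib-1, for fibrillarin, the methyltransferase of box C/D snoRNPs, with 350 in the pooled data and 152 and 195 in the replicates. It was followed by snr-1, an Sm protein gene, with 336 (157 and 181), by ints-8, for a subunit of the Integrator complex that trims snRNA ends, with 241 (124 and 114), by ruvb-1, a helicase gene of snoRNP assembly, with 208, by snr-2, another Sm protein gene, with 138, and by lsm-3 with 115, whose summit lay at -962 bp from the start. By group, 2 of 11 snoRNP genes, 4 of 15 Sm and LSm genes, 2 of 5 snRNP protein genes and 2 of 11 Integrator genes had a summit, while none of 7 SNAPc genes, which allows up to 42.9%, and none of the 2 SMN complex genes did.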

How the data were processed

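ChIP-seq of CEH-2-GFP was measured in 2 biological replicates of 1 group. Per the file headers, the authors made a relaxed list of peaks and background from each replicate's alignments with a control and from those of both, and derived the optimal (here, reproducible) list from these by the irreproducible discovery rate. The aligner, the peak caller, their filters and the thresholds: not given in the sources used here. Control reads were not analysed here. The deposited signal of a peak is the authors' value on a scale not given, used only within a list. The lists hold no read counts, so depth is unknown and intervals cover the counting of genes only.

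Summits on ce11, 1-based, were set against Ensembl release 115 genes of WBcel235, and symbols and sequence came from RefSeq for that assembly (all 475 symbols matched). Mitochondrial peaks were left out. A member was intronic when inside a protein-coding gene and clear of all coding-gene exons. Genome tiles of 725 bp were classed by their central 125 bp. The strongest summit of a member was used. Uniqueness was the share of 31-base words of the padded window found once in the nuclear genome. Intervals are Wilson at 95% and, for differences, Newcombe. An upper limit for 0 is 3 counts of the total. Counting was tested on simulated summits. Named genes are the 10 strongest places of intergenic snoRNA, other snoRNA and snRNA genes, the 3 strongest of each biotype outside the reproducible list, up to 6 protein genes by signal, and hosts. Members, lists and motifs were chosen with earlier results of these data known, and the 3 cores after the upstream sequences had been examined. Alternatives were other paddings, any overlap, the stronger part of the list, each replicate alone, single-copy members, merged loci, members away from other promoters, host genes of any biotype, other promoter lengths and other core forms. Counts were made with pandas 2.3.3 and numpy 2.4.6 under Python 3.11.15, correlations with scipy 1.17.1 and plots with matplotlib 3.10.9.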

Additional observations from a re-analysis of the deposited data

How the results depend on the processing

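The share of members with a reproducible summit was 3.37% with no padding, 20.8% with 1000 bp and 11.6% with the stronger part of the reproducible peaks. The snoRNA minus snRNA difference was -1.76 percentage points with no padding, the only alternative that turned it. The difference between members with and without the B core fell to 19.0 points with the shorter GTTCNA, and that for the A core was 30.1 points when shortened to TGGNNNAG and 47.5 with the form TGGCNNAG, against 70.9; the cause was not tested. With each replicate taken alone, the members' share ran from 14.9% to 16.4%, the snoRNA minus snRNA difference from 10.8 to 12, the intronic minus intergenic difference from -3.37 to -0.778, the median snoRNA position from -46.0 to -43.0 bp, the protein gene share from 17.6% to 21.6% and the B core difference from 49.5 to 53.7. The median of intronic snoRNA genes was -46.0 bp without replicate 1, beside -51.0 bp for intergenic ones. The intronic minus intergenic difference ran from -3.37 to 4.75 over 14 settings, below 0 in 6 and above 0 in 8. The other 44 values of the main results stayed within the interval of the reported one. The forms of the cores, and introns on the host's strand alone, were chosen after seeing the data. No paired analysis was possible because there is only 1 group. With lists of peaks and no read counts, an absent summit cannot be told apart from one under the authors' threshold.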
